A study of Arabidopsis thaliana with 18 samples.

Results

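The WRKY transcription factors of Arabidopsis thaliana were followed through a time course of jasmonic acid (JA) in wild type and ecap-2 seedlings. The members were 42 loci of the family, listed by locus. Of these, 41 were listed among the 22209 genes of the expression tables, and 33 reached 1 FPKM (fragments scaled to transcript length and sequencing depth) in at least 3 libraries and were tested together with 17835 genes in all. The other 8 listed members were low. WRKY32 was not among the 41, so its expression was not analysed here, and it entered the sequence counts alone.

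Whole seedlings of wild type (Col-0) or of the mutant ecap-2, all 6 days old, were moved to plates with 50 µM JA and frozen after 0, 1 or 3 h. Total RNA was sequenced from 3 libraries in each of the 6 groups, and both 0 h groups were recorded as untreated. The series title describes ECAP as linking the JAZ repressors of jasmonate signalling with the TPR2 co-repressor and holding back anthocyanin. The comparisons ask how the transcriptome changed on JA and how the mutant differed before and during JA. The labels do not say which lesion ecap-2 carries or whether the 3 libraries of a group came from separate plates, so the p-values speak of spread among these libraries alone, which may be technical. No group on plates without JA at 1 or 3 h was analysed, so transfer, time of day and JA changed together. In whole seedlings, fewer cells expressing a gene and less RNA of it per cell cannot be told apart.

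AT3G58110, taken here as the ECAP locus, lay between 12.3 and 16.1 FPKM in the 9 wild type libraries and between 2.34 and 2.89 FPKM in the 9 ecap-2 libraries. Replicate libraries correlated at 0.984 to 0.992 over genes on the log2 scale. Read depth is unknown from FPKM, and relative depth estimated from low genes ran from 0.742 to 1.27. The summed FPKM of a library ran from 687996 to 765209 in wild type and from 760383 to 912834 in ecap-2, with the highest sums in ecap-2 at 3 h.

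WRKY proteins carry a DNA-binding domain that opens with tryptophan, arginine, lysine and tyrosine and folds around a zinc ion, and they bind the W box, a short promoter element around the letters TTGAC. Class I proteins have a pair of such domains, class II proteins have 1 and are divided into IIa to IIe, and class III proteins have 1 with another zinc finger. Many are induced within minutes to hours by pathogens, wounding and hormones, act on each other's promoters, and help set the balance between salicylic acid and jasmonate defence. They bind VQ proteins and are phosphorylated by MAP kinases.

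The 7-residue heptad that opens the domain is the part that enters the DNA groove, and its coding sequence is shown here because it separates 2 members from all others. In the 21 bases that encode it, capitals mark the sixth codon. The sequences were read from the RefSeq genome TAIR10.1.
WRKY40 (class IIa), chr1:30384789-30384809, plus strand: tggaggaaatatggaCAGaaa
WRKY29 (class IIe), chr4:12292491-12292511, plus strand: tggcgtaaatacgggCAGaaa
WRKY39 (class IId), chr3:1266791-1266811, minus strand: tggaggaagtatggaCAGaaa
WRKY70 (class III), chr3:20909760-20909780, minus strand: tggaggaaatatggaCAAaag
WRKY33 (class I), first domain, chr2:16109358-16109378, plus strand: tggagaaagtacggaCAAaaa
WRKY33 (class I), second domain, chr2:16109982-16110002, plus strand: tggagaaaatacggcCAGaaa
WRKY50 (class IIc), chr5:9147579-9147599, minus strand: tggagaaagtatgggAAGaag
WRKY51 (class IIc), chr5:25908864-25908884, plus strand: tggaggaagtatggcAAGaaa
The 42 members held 52 such heptads, since 10 members, all of class I, had 2. The sixth codon encoded glutamine in 50 heptads and lysine in 2, those of WRKY50 and WRKY51. The members lay on all chromosomes, with 4, 13, 4, 10 and 11 on chromosomes 1 to 5.

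In wild type at 0 h, 6 members averaged 20 FPKM or more, 9 lay between 10 and 20 FPKM, 15 between 1 and 10 FPKM and 11 under 1 FPKM. WRKY15, a calmodulin-binding class IId factor of leaf growth and oxidative stress, had the highest mean at 30.0, 40.0 and 45.4 FPKM in the 3 libraries. It was followed by WRKY25 (AT2G30250), a class I factor of heat and salt tolerance, at 32.4, 30.6 and 34.5 FPKM. These values overlapped, as did those of 31 of the 40 pairs of neighbours in the order of mean levels, so the order is loose within each range. WRKY41, WRKY55 and WRKY62 were listed at 0 in all 3 wild type libraries at 0 h.

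**Figure D1:**
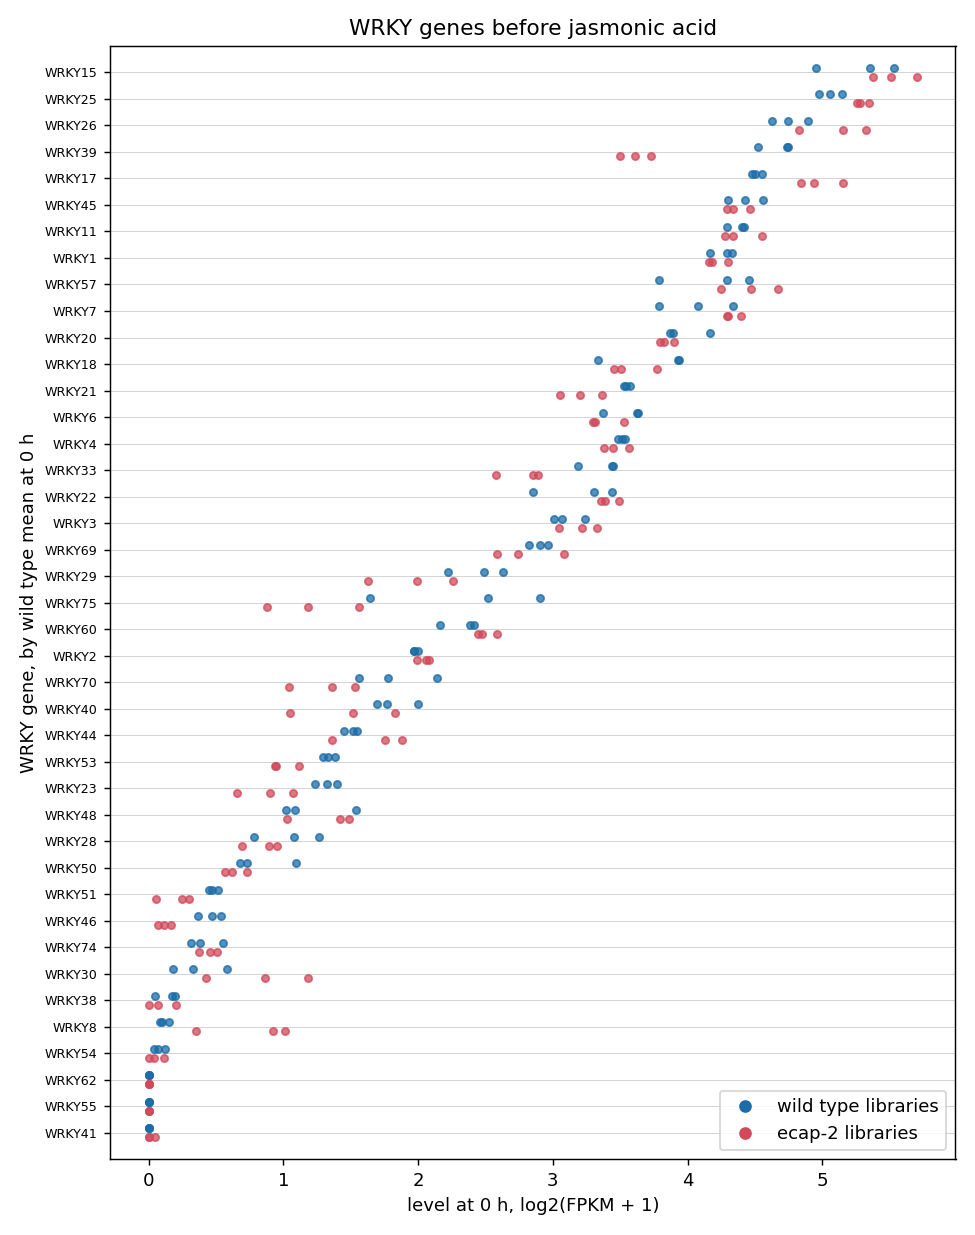
Level of the 41 listed WRKY members at 0 h, as log2(FPKM + 1) on the horizontal axis, with 1 point per library (wild type blue, ecap-2 red, 3 libraries each) and members ordered by their wild type mean. WRKY15 stands at the top, WRKY39 and WRKY75 have red points to the left of the blue ones, and WRKY41, WRKY55 and WRKY62 lie at or near 0.

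Of the 8 members under the filter, 7 were of class III and 1, WRKY74, was of class IId. WRKY41, WRKY46, WRKY54, WRKY55, WRKY62 and WRKY74 reached 1 FPKM in no library and WRKY30 did so in 1. WRKY38, a class III factor that lowers basal defence, reached it in 2 and was the member nearest the filter, with 1.10, 0.673 and 1.31 FPKM in ecap-2 at 1 h. It held 0 to 0.148 FPKM at 0 h over both genotypes and 0.344 to 0.589 FPKM in wild type at 1 h. Just inside were WRKY50 with 5 libraries, all of wild type, WRKY8 with 6, all of ecap-2, and WRKY51 and WRKY70 with 7 each. WRKY51 passed only through libraries on JA, so its change with JA was partly set by the filter, as was the genotype difference of WRKY8. WRKY70 reached 1 FPKM in 6 libraries at 0 h, 1 at 1 h and 0 at 3 h, so its fall on JA was partly set by the filter too. At least 1 FPKM was reached in all 18 libraries by 25 members.

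Many of the tested members changed within 1 h on JA plates, where transfer and time of day changed as well. In wild type, 11 of the 33 rose at 1 h and 6 fell, where 17.3% of all genes tested rose and 16.7% fell (limma on log2(FPKM + 1), Benjamini-Hochberg adjusted p under 0.05 over 17835 genes, two-sided). At 3 h, 9 rose and 4 fell, beside 21.4% and 20.1% of all genes. At both times WRKY51 was among the rises and WRKY70 among the falls, and their changes were partly set by the filter. The median change of the 33 was 0.15 at 1 h and 0.14 at 3 h on the log2 scale, while the median of all genes was 0.0069 and -0.0012. In ecap-2, 14 rose and 7 fell at 1 h, beside 16.6% and 17.0% of all genes, and 15 rose and 4 fell at 3 h, beside 23.1% and 22.2%. The median change of the members in ecap-2 was 0.17 at 1 h and 0.19 at 3 h, against -0.0053 and -0.0069 for all genes. The 1 h and 3 h comparisons of a genotype share its 0 h libraries. Of the members, 10 rose in both genotypes at 1 h and 5 fell in both, beside 12.5% and 12.4% of all genes tested. At 3 h 9 rose and 2 fell in both, beside 15.8% and 13.8%. Every fold below is of FPKM means, while changes with a standard error are on the log2(FPKM + 1) scale, which understates changes of low genes.

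**Figure D2:**
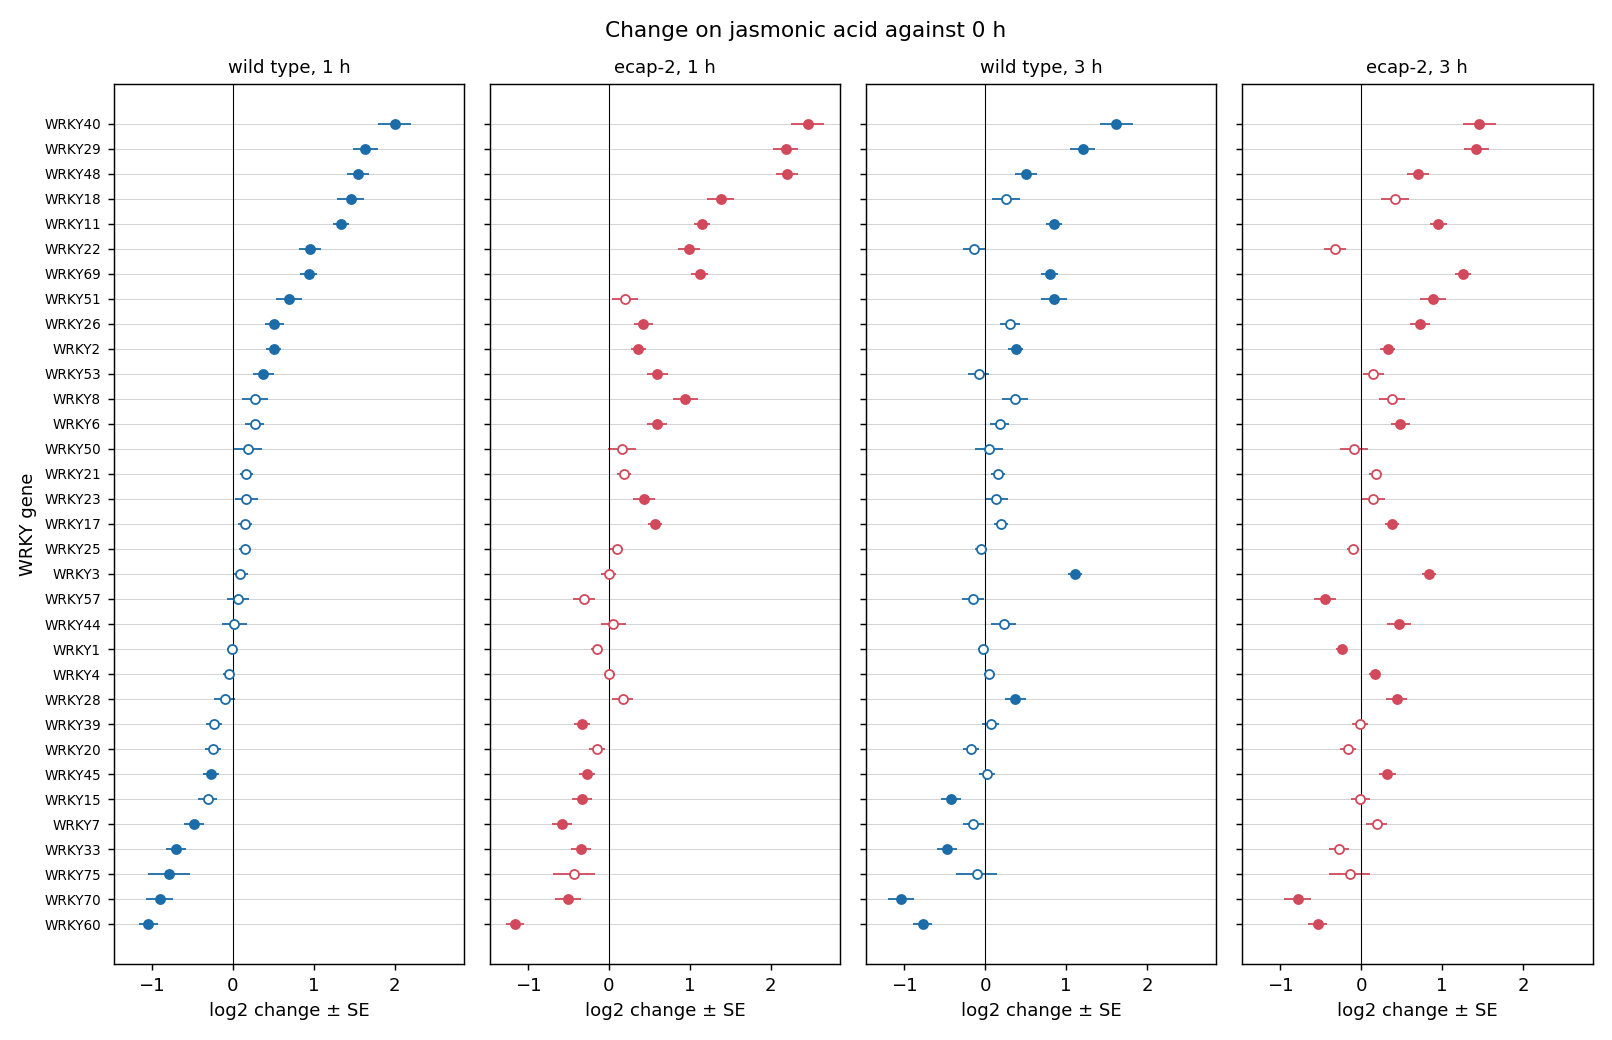
Change of the 33 tested WRKY members on JA against 0 h in each genotype at 1 h and 3 h, as log2 change of FPKM + 1 with its standard error. Filled points passed the adjusted p of 0.05, and members are ordered by the change in wild type at 1 h, from WRKY40 at 2.00 to WRKY60 at -1.04.

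Class IIa, formed by WRKY18, WRKY40 and WRKY60, split on JA. These 3 leucine zipper factors pair with one another and are known as partly redundant regulators of defence and abscisic acid signalling. WRKY18 and WRKY40 (AT1G80840) rose and WRKY60 fell at 1 h in both genotypes, beside 12.5% and 12.4% of all genes tested.

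WRKY40 had the largest log2(FPKM + 1) rise of the tested members in wild type at 1 h. Its values were 3.00, 2.40 and 2.23 FPKM at 0 h, 10.4, 13.2 and 16.4 FPKM at 1 h and 9.06, 10.003 and 10.5 FPKM at 3 h in wild type. In ecap-2 they were 2.55, 1.86 and 1.06 FPKM at 0 h, 13.1, 12.4 and 17.3 FPKM at 1 h and 5.17, 8.89 and 6.12 FPKM at 3 h. All libraries on JA stood above all 0 h libraries in both genotypes. The mean rose 5.24-fold at 1 h in wild type, a log2 change of 2.001 ± 0.20 (SE, n = 3 libraries a group, limma adjusted p = 1.02e-06), and 7.82-fold in ecap-2, a log2 change of 2.46 ± 0.20 (adjusted p = 8.89e-08). At 3 h it stood 3.88-fold above 0 h in wild type and 3.68-fold in ecap-2. The gene overlaps AT1G80850 on the opposite strand, and the strand used in counting is not given in the sources used here. AT1G80850 had a change of -0.18 ± 0.11 at 1 h in wild type and was not called (adjusted p = 0.227). The 250 bases before its start are shown because this strongly rising member holds neither of the motifs searched for, the W box (TTGACC or TTGACT) and the G-box (CACGTG), each on both strands.
WRKY40, chr1:30383311-30383560, plus strand: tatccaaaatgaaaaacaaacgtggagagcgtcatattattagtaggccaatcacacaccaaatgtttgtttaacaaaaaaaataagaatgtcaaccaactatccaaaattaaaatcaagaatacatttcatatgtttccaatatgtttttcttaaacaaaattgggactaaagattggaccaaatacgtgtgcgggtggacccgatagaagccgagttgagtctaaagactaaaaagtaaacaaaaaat
Over the members, 17 of 42 windows (40.5%) held a W box and 5 (11.9%) a G-box, while the shares over 27443 protein-coding genes were 28.4% and 6.49%. These motifs can share at most 1 base. A W box was present in 4 of the 11 members that rose at 1 h in wild type, 3 of the 6 that fell and 5 of the 16 that were not called.

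WRKY18 (AT4G31800) rose and came back within 3 h. Its wild type values were 14.3, 14.2 and 9.09 FPKM at 0 h, 30.8, 33.1 and 43.5 FPKM at 1 h and 13.3, 16.3 and 15.1 FPKM at 3 h, so that the 1 h libraries stood apart and those at 0 h and 3 h overlapped. The ecap-2 libraries gave 9.96, 12.7 and 10.4 FPKM at 0 h, 28.3, 27.4 and 35.1 FPKM at 1 h and 12.4, 17.6 and 15.4 FPKM at 3 h. Its change at 1 h was 1.45 ± 0.17 (adjusted p = 5.61e-06) in wild type and 1.38 ± 0.17 (adjusted p = 1.03e-05) in ecap-2, and from 1 h to 3 h it fell by 1.199 ± 0.17 (adjusted p = 7.49e-05) and by 0.96 ± 0.17 (adjusted p = 0.000405).

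WRKY60 (AT2G25000) went the other way. Wild type libraries held 4.34, 3.48 and 4.23 FPKM at 0 h, 1.13, 1.38 and 1.82 FPKM at 1 h and 1.93, 1.85 and 2.03 FPKM at 3 h. The ecap-2 libraries held 4.45, 5.00 and 4.57 FPKM at 0 h, 1.69, 1.22 and 1.74 FPKM at 1 h and 2.99, 3.18 and 2.58 FPKM at 3 h. Each library on JA was below each 0 h library, with means 2.79-fold lower at 1 h in wild type and 3.01-fold lower in ecap-2. The log2 change at 1 h was -1.04 ± 0.12 (adjusted p = 1.71e-06) in wild type and -1.16 ± 0.12 (adjusted p = 5.08e-07) in ecap-2, and at 3 h it was -0.77 ± 0.12 (adjusted p = 4.03e-05) and -0.54 ± 0.12 (adjusted p = 0.00111).

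The 3 class IIe loci among the 42 members all rose at 1 h in both genotypes, beside 12.5% of all genes tested. Other loci of the class were not looked at as a class. WRKY22 and WRKY29 are known as factors downstream of the MAP kinase cascade that answers bacterial flagellin. WRKY29 (AT4G23550) held 5.19, 3.65 and 4.60 FPKM at 0 h, 14.5, 18.0 and 15.4 FPKM at 1 h and 10.8, 12.2 and 11.6 FPKM at 3 h in wild type, and 3.77, 2.10 and 2.98 FPKM at 0 h, 18.8, 17.2 and 14.3 FPKM at 1 h and 9.59, 11.04 and 7.87 FPKM at 3 h in ecap-2. The JA libraries were above the 0 h libraries throughout. The rise at 1 h was 3.57-fold in wild type (log2 change 1.64 ± 0.15, adjusted p = 2.61e-07) and 5.69-fold in ecap-2 (2.18 ± 0.15, adjusted p = 6.32e-09). Its promoter is shown for its pair of W boxes near the start, in capitals.
WRKY29, chr4:12291382-12291631, plus strand: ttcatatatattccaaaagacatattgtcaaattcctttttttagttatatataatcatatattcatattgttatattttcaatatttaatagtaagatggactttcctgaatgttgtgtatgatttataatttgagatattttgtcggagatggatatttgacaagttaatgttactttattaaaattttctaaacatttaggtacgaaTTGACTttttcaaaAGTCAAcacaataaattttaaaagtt
The first is on the plus strand and the second on the minus strand, 40 and 26 bases before the start. AT4G23560, on the opposite strand to WRKY29, averaged 3.43, 5.08 and 8.05 FPKM at 0, 1 and 3 h in wild type. Its change of 0.45 at 1 h was not called (adjusted p = 0.136), and it rose by 1.04 ± 0.22 at 3 h (adjusted p = 0.00127). The part of those reads in the 3 h value of WRKY29 was not tested.

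WRKY22 (AT4G01250) gave a short pulse. It stood at 6.21, 8.89 and 9.87 FPKM at 0 h, 16.5, 15.6 and 18.4 FPKM at 1 h and 7.07, 6.46 and 8.71 FPKM at 3 h in wild type and at 9.48, 9.25 and 10.3 FPKM at 0 h, 20.5, 19.4 and 20.7 FPKM at 1 h and 7.11, 6.46 and 9.24 FPKM at 3 h in ecap-2. In each genotype the 1 h libraries lay above the others, and in ecap-2 those at 3 h lay below those at 0 h although that change did not pass (-0.32 ± 0.14, adjusted p = 0.0695). The change at 1 h was 0.95 ± 0.14 (adjusted p = 3.98e-05) in wild type and 0.99 ± 0.14 (adjusted p = 2.69e-05) in ecap-2, and from 1 h to 3 h it fell by 1.09 ± 0.14 (adjusted p = 1.83e-05) and by 1.31 ± 0.14 (adjusted p = 2.07e-06).

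WRKY69 (AT3G58710) stayed up. Its libraries gave 6.51, 6.09 and 6.79 FPKM at 0 h, 12.1, 13.8 and 14.0 FPKM at 1 h and 12.5, 11.3 and 12.1 FPKM at 3 h in wild type. In ecap-2 they gave 4.99, 5.68 and 7.47 FPKM at 0 h, 13.5, 15.4 and 13.7 FPKM at 1 h and 15.2, 16.96 and 14.9 FPKM at 3 h. The groups at 0 h and on JA did not overlap. It rose by 0.94 ± 0.10 at 1 h and 0.80 ± 0.10 at 3 h in wild type (adjusted p = 1.91e-06 and 9.14e-06), and by 1.12 and 1.26 in ecap-2. AT3G58720, opposite to it, was not called at either time in either genotype. A further gene, AT3G09145, also overlaps WRKY69 on the opposite strand, and its part in these values was not tested.

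**Figure D3:**
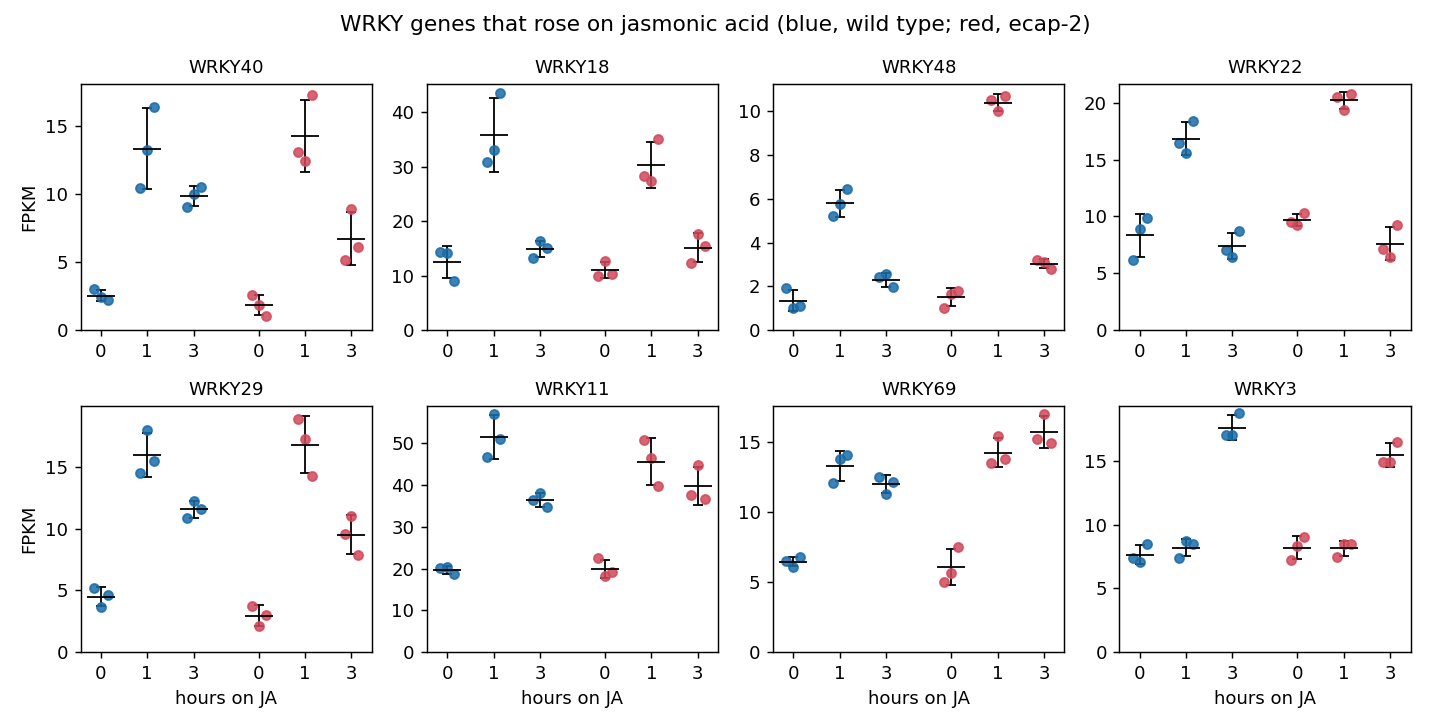
FPKM of 8 WRKY members that rose on JA, by hours on JA, with 1 point per library (wild type blue on the left, ecap-2 red on the right), a line at the mean and bars of 1 SD (n = 3). WRKY18, WRKY48 and WRKY22 peak at 1 h, WRKY69 stays high at 3 h and WRKY3 is high at 3 h alone.

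In class IId, whose members bind calmodulin, 1 of the 6 tested rose and 1 fell at 1 h in wild type, a share near the 17.3% and 16.7% of all genes. In ecap-2 at 1 h, 2 of the 6 rose and 3 fell, beside 16.6% and 17.0% of all genes. WRKY11 (AT4G31550), known as a negative regulator of resistance to bacteria, rose in wild type from 20.1, 20.4 and 18.6 FPKM at 0 h to 46.7, 57.1 and 51.0 FPKM at 1 h and stood at 36.5, 38.0 and 34.8 FPKM at 3 h. The ecap-2 libraries gave 22.5, 18.4 and 19.2 FPKM at 0 h, 50.7, 46.5 and 39.7 FPKM at 1 h and 37.6, 44.9 and 36.6 FPKM at 3 h. No library on JA overlapped with one at 0 h, and the change at 1 h was 1.34 ± 0.10 (adjusted p = 1.66e-08) in wild type and 1.15 ± 0.10 (adjusted p = 1.12e-07) in ecap-2. WRKY11 had the highest mean of the members in wild type at 1 h. WRKY17 (AT2G24570), its close relative and partner in that role, was not called on JA in wild type, with 21.3, 21.6 and 22.5 FPKM at 0 h, 24.9, 24.5 and 23.7 FPKM at 1 h and 24.6, 27.1 and 24.0 FPKM at 3 h, and its 1 h change was 0.15 ± 0.089 (adjusted p = 0.206). In ecap-2 it rose from 34.6, 27.7 and 29.6 FPKM to 47.3, 49.2 and 41.3 FPKM at 1 h and stood at 41.99, 43.2 and 35.5 FPKM at 3 h, changes of 0.57 ± 0.089 (adjusted p = 7.99e-05) and 0.38 ± 0.089 (adjusted p = 0.00211). The 3 h call was lost (adjusted p = 0.0514) when libraries were rescaled to a common summed FPKM. The difference of its 1 h response between the genotypes, 0.42 ± 0.13 (adjusted p = 0.253), did not pass.

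WRKY7 and WRKY15, of the same class, fell on JA at 1 or more times. WRKY7 (AT4G24240) gave 12.8, 15.9 and 19.3 FPKM at 0 h, 10.4, 11.5 and 11.3 FPKM at 1 h and 14.1, 13.6 and 14.9 FPKM at 3 h in wild type, and 20.1, 18.6 and 18.7 FPKM at 0 h, 14.2, 13.6 and 10.03 FPKM at 1 h and 24.5, 22.3 and 19.5 FPKM at 3 h in ecap-2. The 1 h libraries were the lowest in each genotype, with changes of -0.48 ± 0.13 (adjusted p = 0.00749) and -0.58 ± 0.13 (adjusted p = 0.00196). The wild type call was lost without replicate 3 of wild type at 0 h (adjusted p = 0.0507). WRKY15 (AT2G23320) stood at 27.2, 30.5 and 33.8 FPKM at 1 h and 28.5, 25.5 and 30.5 FPKM at 3 h in wild type and at 44.7, 40.5 and 51.1 FPKM at 0 h, 36.8, 35.1 and 35.1 FPKM at 1 h and 46.4, 45.3 and 43.1 FPKM at 3 h in ecap-2. It fell at 3 h in wild type, by 0.42 ± 0.12 (adjusted p = 0.00993), a call lost in 3 of 27 alternative settings, among them without replicate 3 of wild type at 0 h (adjusted p = 0.0640) or replicate 2 of wild type at 3 h (0.0509). Its fall at 1 h in ecap-2 (-0.34 ± 0.12, adjusted p = 0.0407) was lost in 9 of 27 alternative settings.

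In class IIc, 2 of the 9 tested members rose and 2 fell at 1 h in wild type, near the 17.3% and 16.7% of all genes. WRKY48 (AT5G49520), known as a repressor of basal defence, had 1.91, 1.03 and 1.12 FPKM at 0 h, 5.20, 5.78 and 6.44 FPKM at 1 h and 2.41, 2.56 and 1.95 FPKM at 3 h in wild type. In ecap-2 it had 1.03, 1.67 and 1.81 FPKM at 0 h, 10.5, 9.99 and 10.7 FPKM at 1 h and 3.19, 3.13 and 2.80 FPKM at 3 h. The 1 h libraries of each genotype stood above all others, and those of ecap-2 above those of wild type. The mean rose 4.29-fold in wild type (1.55 ± 0.14, adjusted p = 1.48e-07) and 6.91-fold in ecap-2 (2.199 ± 0.14, adjusted p = 1.45e-09). From 1 h to 3 h it fell by 1.04 ± 0.14 (adjusted p = 2.79e-05) and by 1.497 ± 0.14 (adjusted p = 5.41e-07).

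WRKY50 and WRKY51 (AT5G64810), the pair with the lysine codon, are known for mediating the repression of jasmonate signalling when oleic acid is low. They differed in these libraries. WRKY51 was low, at 0.431, 0.386 and 0.360 FPKM at 0 h, 1.42, 1.90 and 0.646 FPKM at 1 h and 1.41, 1.68 and 1.47 FPKM at 3 h in wild type, and 0.0404, 0.187 and 0.231 FPKM at 0 h, 0.263, 0.216 and 0.498 FPKM at 1 h and 1.33, 1.20 and 0.863 FPKM at 3 h in ecap-2. Every wild type library on JA was above every one at 0 h, whereas in ecap-2 1 of the 1 h libraries lay within the 0 h range and the 3 h libraries stood apart. It rose by 0.70 ± 0.16 at 1 h in wild type (adjusted p = 0.00277) and by 0.86 ± 0.16 at 3 h (adjusted p = 0.000404). In ecap-2 the change at 1 h was 0.20 ± 0.16 (adjusted p = 0.379) and at 3 h 0.88 ± 0.16 (adjusted p = 0.000284), and the difference between genotypes at 1 h did not pass (-0.50 ± 0.23, adjusted p = 0.623). WRKY51 passed the filter only through libraries on JA, so the p-values of its rises were partly set by the filter. WRKY50 (AT5G26170) gave 0.597, 1.13 and 0.660 FPKM at 0 h, 1.15, 0.789 and 1.16 FPKM at 1 h and 1.06, 1.19 and 0.393 FPKM at 3 h in wild type and 0.268 to 0.883 FPKM over the ecap-2 libraries, with the 3 wild type groups overlapping one another, and passed in no comparison. The promoter of WRKY51 is shown for its G-box, the element bound by the jasmonate factor MYC2, in capitals.
WRKY51, chr5:25907997-25908246, plus strand: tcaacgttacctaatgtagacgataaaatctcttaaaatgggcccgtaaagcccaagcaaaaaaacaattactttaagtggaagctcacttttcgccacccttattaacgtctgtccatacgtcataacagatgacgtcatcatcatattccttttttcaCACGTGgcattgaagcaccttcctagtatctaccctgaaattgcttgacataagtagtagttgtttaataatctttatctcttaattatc
The other members with a G-box in this window were WRKY2, WRKY15, WRKY44 and WRKY45.

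WRKY75 (AT5G13080), known for phosphate starvation and root hairs, gave 2.12, 6.50 and 4.73 FPKM at 0 h, 2.43, 1.30 and 2.29 FPKM at 1 h and 3.78, 3.38 and 4.15 FPKM at 3 h in wild type. The lowest 0 h library lay within the 1 h range, and the fall at 1 h (-0.79 ± 0.26, adjusted p = 0.0248) was lost in 4 of 26 settings. These were without replicate 2 of wild type at 0 h (adjusted p = 0.136), replicate 3 of wild type at 0 h (0.0837) or replicate 2 of wild type at 1 h (0.110), and with only the libraries compared (0.1463). WRKY45 (AT3G01970), known as an activator of a phosphate transporter, stood at 18.7, 20.5 and 22.6 FPKM at 0 h, 18.2, 16.6 and 15.9 FPKM at 1 h and 22.8, 20.7 and 19.3 FPKM at 3 h in wild type and at 21.1, 19.2 and 18.6 FPKM at 0 h, 19.4, 14.1 and 15.0 FPKM at 1 h and 25.8, 24.2 and 24.3 FPKM at 3 h in ecap-2. Its falls at 1 h, -0.27 ± 0.10 (adjusted p = 0.0473) in wild type and -0.27 ± 0.10 (adjusted p = 0.0452) in ecap-2, were lost in 14 of 27 and 14 of 27 alternative settings, while its rise from 1 h to 3 h in ecap-2 (0.60 ± 0.10, adjusted p = 0.000201) was lost in 0 of 27. WRKY28 (AT4G18170), an activator of the salicylic acid gene ICS1, gave 0.721, 1.11 and 1.41 FPKM at 0 h, 0.805, 0.927 and 1.03 FPKM at 1 h and 1.64, 1.46 and 1.94 FPKM at 3 h in wild type and 0.619, 0.857 and 0.934 FPKM at 0 h, 0.990, 0.930 and 1.16 FPKM at 1 h and 1.75, 1.22 and 1.38 FPKM at 3 h in ecap-2. It rose at 3 h by 0.38 ± 0.13 in wild type (adjusted p = 0.0256) and 0.44 ± 0.13 in ecap-2 (adjusted p = 0.00970). The first of these calls was lost in 4 of 26 settings, among them without replicate 1 of wild type at 0 h (adjusted p = 0.145), replicate 1 of wild type at 3 h (0.0534) or replicate 3 of wild type at 3 h (0.108). The second was lost without replicate 1 of ecap-2 at 3 h (adjusted p = 0.0563).

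WRKY8 and WRKY57 were called on JA in ecap-2 and not in wild type. WRKY8 (AT5G46350), known from salt stress and defence against Botrytis, was near 0 in wild type, with 0.0729, 0.0580 and 0.109 FPKM at 0 h, 0.489, 0.187 and 0.266 FPKM at 1 h and 0.268, 0.563 and 0.380 FPKM at 3 h, and was not called there. In ecap-2 it rose from 0.272, 1.01 and 0.891 FPKM to 2.60, 1.95 and 2.26 FPKM at 1 h and stood at 1.22, 1.49 and 0.918 FPKM at 3 h, with a 1 h change of 0.95 ± 0.16 (adjusted p = 0.000176). The difference of its response from wild type, 0.67 ± 0.23 (adjusted p = 0.356), did not pass. All wild type libraries on JA stood above those at 0 h, with means 3.92-fold higher at 1 h and 5.05-fold higher at 3 h. In ecap-2 the means were 3.13-fold and 1.67-fold higher, and all wild type values were under 1 FPKM. WRKY57 (AT1G69310), which binds JAZ proteins and holds back jasmonate-induced leaf senescence, gave 18.6, 20.97 and 12.8 FPKM at 0 h, 18.1, 18.2 and 17.3 FPKM at 1 h and 13.5, 16.7 and 16.2 FPKM at 3 h in wild type, where it was not called. In ecap-2 it gave 24.5, 21.2 and 18.0 FPKM at 0 h, 17.7, 17.05 and 15.8 FPKM at 1 h and 14.4, 15.8 and 15.3 FPKM at 3 h and fell at 3 h (-0.45 ± 0.14, adjusted p = 0.0121), a call lost without replicate 1 of ecap-2 at 0 h (adjusted p = 0.0598). WRKY23 (AT2G47260), tied to auxin and root growth, rose at 1 h in ecap-2 (0.43 ± 0.14, adjusted p = 0.0239). That call was lost in 4 of 26 settings, among them without replicate 1 of ecap-2 at 0 h (adjusted p = 0.116), replicate 1 of ecap-2 at 1 h (0.0551) or replicate 3 of ecap-2 at 1 h (0.101).

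In class I, WRKY33 fell and WRKY3 rose late. WRKY33 (AT2G38470) is the factor of camalexin synthesis and of defence against necrotrophic fungi, and a substrate of MPK3 and MPK6. It held 9.85, 9.90 and 8.08 FPKM at 0 h, 4.79, 4.78 and 6.46 FPKM at 1 h and 5.87, 5.64 and 7.89 FPKM at 3 h in wild type. All 6 wild type libraries on JA lay below those at 0 h. In ecap-2 the libraries held 6.42, 6.24 and 4.98 FPKM at 0 h, 4.14, 4.31 and 4.71 FPKM at 1 h and 4.37, 4.92 and 4.69 FPKM at 3 h, with all JA libraries again below those at 0 h. It fell 1.74-fold at 1 h in wild type, by 0.70 ± 0.13 (adjusted p = 0.000335), and by 0.47 ± 0.13 at 3 h (adjusted p = 0.00674). The fall in ecap-2 at 1 h was 0.35 ± 0.13 (adjusted p = 0.0438), a call lost in 10 of 27 alternative settings, and the difference between genotypes did not pass (0.35 ± 0.18, adjusted p = 0.693). AT2G38480 on the opposite strand averaged 14.5 FPKM at 0 h, 12.3 FPKM at 1 h and 10.2 FPKM at 3 h in wild type and also fell at 3 h (-0.47 ± 0.089, adjusted p = 0.000401), and its part in the values of WRKY33 was not tested. Nor was that of AT2G08965, which also overlaps WRKY33 on the opposite strand. The promoter of WRKY33 is shown because WRKY33 is known to act on W boxes of its own promoter, and 2 are found here, both on the minus strand, in capitals.
WRKY33, chr2:16107985-16108234, plus strand: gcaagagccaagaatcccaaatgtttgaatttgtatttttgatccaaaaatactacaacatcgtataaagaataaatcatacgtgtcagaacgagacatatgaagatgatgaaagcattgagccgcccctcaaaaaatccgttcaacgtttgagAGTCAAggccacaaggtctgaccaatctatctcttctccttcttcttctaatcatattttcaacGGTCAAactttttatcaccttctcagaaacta

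WRKY3 (AT2G03340), which with WRKY4 supports defence against necrotrophs, had the largest log2(FPKM + 1) rise of the tested members from 1 h to 3 h in each genotype. Its libraries gave 7.37, 7.05 and 8.46 FPKM at 0 h, 7.41, 8.69 and 8.48 FPKM at 1 h and 17.04, 17.03 and 18.7 FPKM at 3 h in wild type, and 7.26, 8.28 and 9.04 FPKM at 0 h, 7.47, 8.50 and 8.49 FPKM at 1 h and 14.9, 14.9 and 16.5 FPKM at 3 h in ecap-2. The 3 h libraries stood far above the rest in both genotypes. From 1 h to 3 h it rose by 1.02 ± 0.089 in wild type (adjusted p = 3.40e-07) and 0.85 ± 0.089 in ecap-2 (adjusted p = 1.90e-06). WRKY4 (AT1G13960) ranged from 9.46 to 11.2 FPKM over the wild type libraries and was not called there. Its rise in ecap-2 at 3 h, 0.17 ± 0.067, was at the threshold (adjusted p = 0.0497) and took the opposite sign, -0.0069, after rescaling to a common summed FPKM. AT1G13970 overlaps WRKY4 on the opposite strand, and its part in these values was not tested.

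WRKY26 (AT5G07100), which shares a role in heat tolerance with WRKY25 and WRKY33, rose at 1 h. It stood at 23.7, 28.7 and 25.8 FPKM at 0 h, 33.1, 37.9 and 42.5 FPKM at 1 h and 30.3, 35.7 and 31.4 FPKM at 3 h in wild type and at 39.0, 27.5 and 34.6 FPKM at 0 h, 45.8, 49.0 and 41.1 FPKM at 1 h and 59.99, 57.5 and 50.2 FPKM at 3 h in ecap-2. The wild type 1 h and 0 h libraries did not overlap (0.52 ± 0.12, adjusted p = 0.00292), and in ecap-2 the highest levels came at 3 h (0.72 ± 0.12, adjusted p = 0.000111). Its rise in ecap-2 at 1 h (0.43 ± 0.12, adjusted p = 0.0109) was lost without replicate 2 of ecap-2 at 0 h (adjusted p = 0.0714) or replicate 2 of ecap-2 at 1 h (0.0527). WRKY44 (AT2G37260), also called TTG2, acts in trichomes, seed coat tannin and mucilage downstream of the complex that also drives anthocyanin formation. It gave 1.73, 1.92 and 1.86 FPKM at 0 h, 1.68, 2.39 and 1.61 FPKM at 1 h and 2.06, 3.102 and 1.92 FPKM at 3 h in wild type, with no call and with the lowest 3 h library level with the highest at 0 h. In ecap-2 it gave 1.56, 2.68 and 2.37 FPKM at 0 h, 2.23, 1.93 and 2.76 FPKM at 1 h and 3.09, 3.46 and 3.62 FPKM at 3 h and rose at 3 h (0.47 ± 0.15, adjusted p = 0.0189), a call lost after rescaling to a common total (adjusted p = 0.0952) and without replicate 1 of ecap-2 at 0 h (adjusted p = 0.102), replicate 2 of ecap-2 at 3 h (0.0509) or replicate 3 of ecap-2 at 3 h (0.0573). WRKY2 (AT5G56270), a pollen and embryo factor, rose at 1 h in wild type from 2.91, 2.92 and 2.99 FPKM to 4.03, 4.97 and 4.81 FPKM (0.50 ± 0.092, adjusted p = 0.000375). AT5G56280 opposite to WRKY2 rose too (0.38 ± 0.058, adjusted p = 5.46e-05), so the source of those reads cannot be told apart. WRKY20 (AT4G26640) ranged from 10.7 to 16.9 FPKM over the 18 libraries and, with WRKY50, was called in none of the 11 comparisons.

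Class III and class IIb completed the classes of the 42 members. WRKY70 (AT3G56400), known as a node that favours salicylic acid over jasmonate responses, fell on JA. Its wild type libraries held 1.96, 3.41 and 2.43 FPKM at 0 h, 0.899, 0.794 and 1.01 FPKM at 1 h and 0.620, 0.819 and 0.744 FPKM at 3 h, with no overlap between 0 h and JA. In ecap-2 they held 1.06, 1.57 and 1.88 FPKM at 0 h, 0.487, 0.867 and 0.929 FPKM at 1 h and 0.651, 0.189 and 0.514 FPKM at 3 h. The mean was 2.89-fold lower at 1 h and 3.57-fold lower at 3 h in wild type, changes of -0.90 ± 0.16 (adjusted p = 0.000339) and -1.04 ± 0.16 (adjusted p = 6.71e-05). The p-values of falls of WRKY70 were partly set by the filter, which it passed mainly through libraries at 0 h. The fall in ecap-2 was 0.50 ± 0.16 at 1 h (adjusted p = 0.0248), lost without replicate 2 of ecap-2 at 0 h (adjusted p = 0.0698), replicate 3 of ecap-2 at 0 h (0.111) or replicate 1 of ecap-2 at 1 h (0.118), and 0.79 ± 0.16 at 3 h (adjusted p = 0.000866), lost in 0 of 26 settings. WRKY53 (AT4G23810), an activator of senescence that pairs with WRKY70, gave 1.51, 1.61 and 1.45 FPKM at 0 h, 2.42, 2.14 and 2.27 FPKM at 1 h and 1.76, 1.10 and 1.35 FPKM at 3 h in wild type and 0.926, 0.916 and 1.16 FPKM at 0 h, 2.74, 1.68 and 1.75 FPKM at 1 h and 1.04, 1.41 and 1.22 FPKM at 3 h in ecap-2. It rose at 1 h, by 0.38 ± 0.13 (adjusted p = 0.0309) and 0.60 ± 0.13 (adjusted p = 0.00157), and the wild type call was lost without any 1 of 5 of the 6 libraries compared (adjusted p up to 0.0868). WRKY6 (AT1G62300) of class IIb, a regulator of phosphate export to the shoot, rose in ecap-2 at 1 h (0.59 ± 0.12, adjusted p = 0.000867) and had a change of 0.27 ± 0.12 (adjusted p = 0.0893) in wild type, and it ranged from 8.84 to 17.2 FPKM in all.

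Between 1 h and 3 h, 4 members rose and 6 fell in wild type (12.1% and 18.2%), near the 14.5% and 14.5% of all genes. In ecap-2 8 rose and 7 fell (24.2% and 21.2%), near the 20.9% and 19.7% of all genes. The median change of the members was -0.027 and -0.037 in the 2 genotypes, and that of all genes -0.0070 and 0.0073. Besides those given above, WRKY7 rose in ecap-2 (0.77 ± 0.13, adjusted p = 0.000182), as did WRKY60 (0.62 ± 0.12, adjusted p = 0.000456) and WRKY51 (0.68 ± 0.16, adjusted p = 0.00312), while WRKY40 fell there (-1.0003 ± 0.20, adjusted p = 0.00114).

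Members were called between the genotypes at a share below or near that of all genes. In ecap-2 at 0 h, 4 of the 33 tested members were higher and 8 lower than in wild type, beside 21.2% and 23.0% of all genes. At 1 h, 3 were higher and 5 lower, beside 17.9% and 21.9%, and at 3 h 8 were higher and 7 lower, beside 28.8% and 28.6%. The median difference of the members was -0.067 at 0 h, -0.0065 at 1 h and 0.010 at 3 h, and that of all genes was -9e-04, -0.0165 and 0.0055. WRKY8 and WRKY17 were higher and WRKY21, WRKY39 and WRKY75 lower at all 3 times (6.06% and 9.09% of the members), beside 13.0% and 15.2% of all genes. WRKY8 passed the filter through ecap-2 libraries alone, so its place in this count was partly set by the filter. At 1 time or more 21 members (63.6%) passed, beside 68.5% of all genes. Rescaling all libraries to a common summed FPKM shifted the median difference of all genes to -0.11 at 0 h, -0.10 at 1 h and -0.20 at 3 h.

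**Figure D4:**
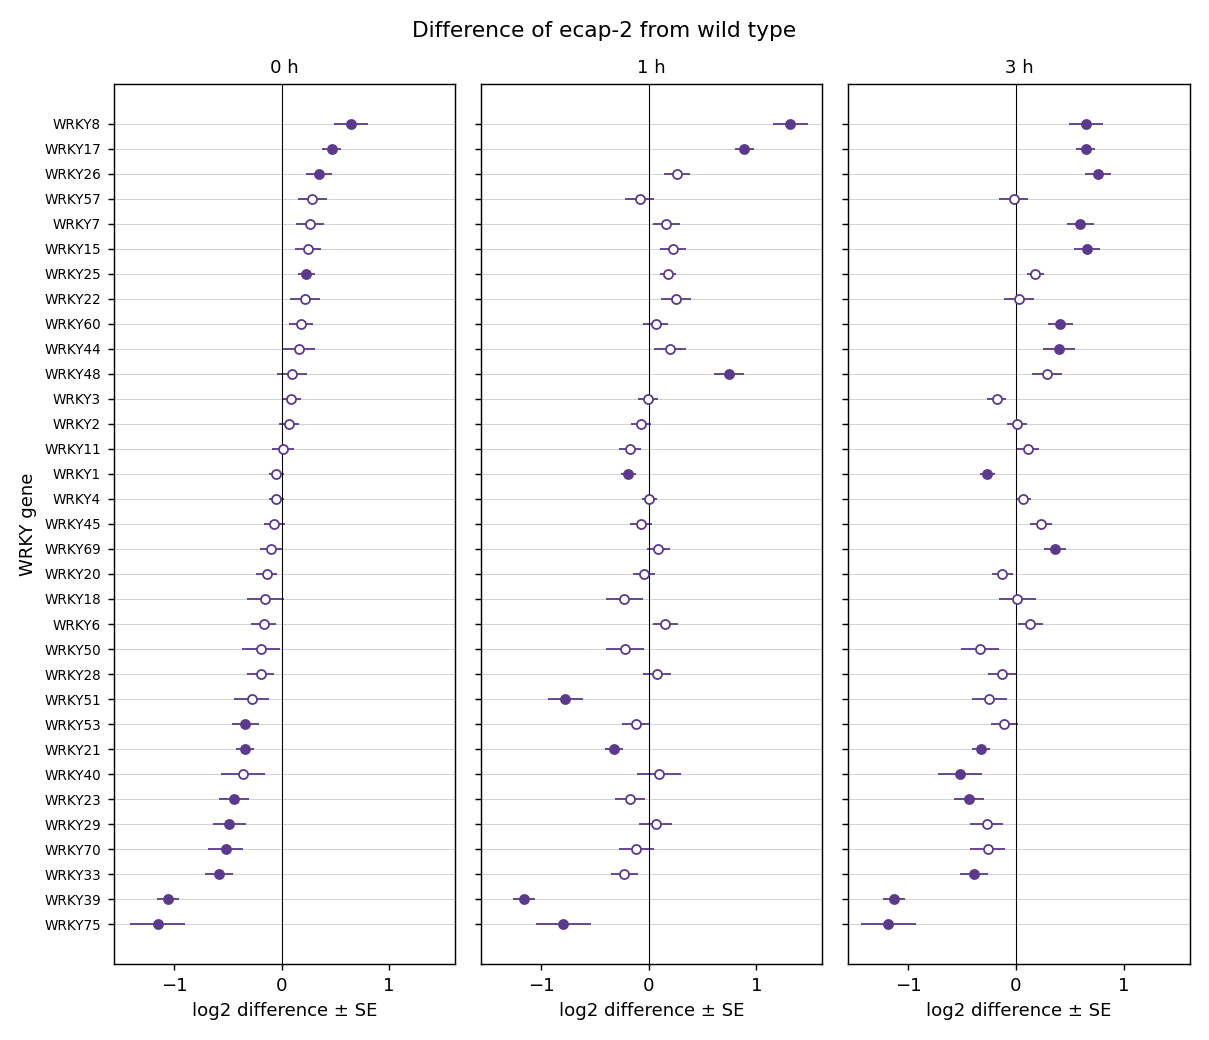
Difference of ecap-2 from wild type at 0, 1 and 3 h for the 33 tested WRKY members, as log2 difference of FPKM + 1 with its standard error. Filled points passed the adjusted p of 0.05. WRKY8 and WRKY17 lie to the right and WRKY21, WRKY39 and WRKY75 to the left of 0 at every time. WRKY8 passed the filter through ecap-2 libraries alone.

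WRKY39 (AT3G04670), a class IId factor of heat response, had a difference that was clear in every library. It stood at 22.0, 25.7 and 25.8 FPKM at 0 h, 20.98, 21.1 and 19.98 FPKM at 1 h and 25.3, 24.0 and 27.8 FPKM at 3 h in wild type and at 10.3, 11.2 and 12.3 FPKM at 0 h, 7.75, 9.28 and 9.19 FPKM at 1 h and 10.4, 10.1 and 13.2 FPKM at 3 h in ecap-2. The lowest of the 9 wild type libraries was above the highest of the 9 ecap-2 libraries. Its mean was 2.17-fold lower at 0 h, 2.37-fold lower at 1 h and 2.29-fold lower at 3 h, with differences of -1.05 ± 0.10 (adjusted p = 6.84e-07), -1.16 ± 0.10 (adjusted p = 2.69e-07) and -1.13 ± 0.10 (adjusted p = 1.50e-07). WRKY39 did not pass on JA in wild type at either time, and in ecap-2 it fell at 1 h by 0.34 ± 0.10 (adjusted p = 0.0149), lost without replicate 3 of ecap-2 at 0 h (adjusted p = 0.0686) or replicate 1 of ecap-2 at 1 h (0.0816). From 1 h to 3 h it rose in wild type (0.30 ± 0.10, adjusted p = 0.0329) and ecap-2 (0.32 ± 0.10, adjusted p = 0.0160), calls lost in 6 of 27 and 3 of 27 settings.

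WRKY75 was 3.29-fold lower in ecap-2 at 0 h and 3.39-fold lower at 3 h. Its ecap-2 libraries held 0.841, 1.26 and 1.95 FPKM at 0 h, 0.704, 0.811 and 0.621 FPKM at 1 h and 0.993, 1.55 and 0.795 FPKM at 3 h, each set below the wild type set of the same time. At 0, 1 and 3 h the differences were -1.15 ± 0.26 (adjusted p = 0.00188), -0.79 ± 0.26 (adjusted p = 0.0216) and -1.19 ± 0.26 (adjusted p = 0.000918). That at 1 h was lost in 5 of 26 settings. These were without replicate 1 of wild type at 1 h (adjusted p = 0.0755), replicate 3 of wild type at 1 h (0.0701), replicate 1 of ecap-2 at 1 h (0.0534) or replicate 3 of ecap-2 at 1 h (0.0600), and with a pseudocount of 5 (0.07338). WRKY21 (AT2G30590), a class IId member, held 10.5 to 12.6 FPKM over the wild type libraries and 7.30 to 10.5 FPKM over those of ecap-2, differences of -0.34 ± 0.084 (adjusted p = 0.00345), -0.32 ± 0.084 (adjusted p = 0.00615) and -0.33 ± 0.084 (adjusted p = 0.00322) at 0, 1 and 3 h.

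WRKY17 was higher in ecap-2 in every library of each time, as its values above show. The difference before JA was 0.47 ± 0.089 (adjusted p = 0.000501). After 1 h it was 0.89 ± 0.089 (adjusted p = 1.38e-06), with the mean 1.89-fold higher, and after 3 h 0.65 ± 0.089 (adjusted p = 1.28e-05). WRKY11 of the same class was called at no time, with 0.015 ± 0.10 (adjusted p = 0.921) at 0 h. WRKY8 was higher at 0, 1 and 3 h, by 0.65 ± 0.16 (adjusted p = 0.00353), 1.32 ± 0.16 (adjusted p = 9.94e-06) and 0.65 ± 0.16 (adjusted p = 0.00223), although its level stayed under 3 FPKM. These p-values of WRKY8 were partly set by the filter, which it passed through 6 ecap-2 libraries alone. WRKY26 was higher at 3 h, without overlap (0.77 ± 0.12, adjusted p = 5.09e-05), and at 0 h (0.35 ± 0.12, adjusted p = 0.0275), where the call was lost in 6 of 27 alternative settings. WRKY15 and WRKY7 were higher at 3 h, by 0.66 ± 0.12 (adjusted p = 0.000215) and 0.60 ± 0.13 (adjusted p = 0.000789), with all ecap-2 libraries above those of wild type. WRKY60, WRKY69 and WRKY44 were higher at 3 h by 0.41, 0.36 and 0.40 (adjusted p = 0.00574, 0.00711 and 0.0328), and these calls were lost after rescaling to a common total (adjusted p = 0.0809, 0.267 and 0.231). That of WRKY44 was lost in 5 of 26 settings, 4 of which left out 1 library. WRKY25, at 39.6, 37.8 and 37.3 FPKM in ecap-2 at 0 h, was higher there by 0.23 ± 0.077 (adjusted p = 0.0235), a call lost in 5 of 27 settings.

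WRKY33 was 1.58-fold lower at 0 h without overlap (-0.58 ± 0.13, adjusted p = 0.00152), and at 3 h it was lower by 0.39 ± 0.13 (adjusted p = 0.0149). The 3 h call was lost in 3 of 27 settings. These were without replicate 3 of wild type at 3 h (adjusted p = 0.0995), without replicate 1 of ecap-2 at 3 h (0.0537) and with quantile normalization (0.1161). AT2G38480, on the other strand of WRKY33, was higher in ecap-2 at 0 h (0.62 ± 0.089, adjusted p = 4.32e-05). WRKY70 was lower at 0 h (-0.52 ± 0.16, adjusted p = 0.0169), lost in 5 of 26 settings. Among these were fits without replicate 2 of wild type at 0 h (adjusted p = 0.101) or replicate 1 of ecap-2 at 0 h (0.0922), and quantile normalization (0.08485). WRKY29 was lower at 0 h by 0.48 ± 0.15 (adjusted p = 0.0171), lost in 4 of 27 settings. AT4G23560 opposite to WRKY29 was also lower (-0.94 ± 0.22, adjusted p = 0.00279), and its part in that value was not tested. WRKY53 was lower at 0 h by 0.34 ± 0.13 (adjusted p = 0.0430), lost in 9 of 26 settings, and AT4G23800 opposite to it was lower by 0.68 ± 0.081 (adjusted p = 6.55e-06). WRKY51 was lower at 1 h (-0.77 ± 0.16, adjusted p = 0.00126) and WRKY48 higher at 1 h (0.75 ± 0.14, adjusted p = 0.000480), both without overlap. WRKY23 held 1.64, 1.35 and 1.504 FPKM at 0 h, 1.82, 1.85 and 1.73 FPKM at 1 h and 2.03, 1.15 and 2.19 FPKM at 3 h in wild type and 0.571, 0.866 and 1.10 FPKM at 0 h, 1.47, 1.25 and 1.73 FPKM at 1 h and 1.09, 0.866 and 1.16 FPKM at 3 h in ecap-2, lower at 0 h (-0.44 ± 0.14, adjusted p = 0.0169) and 3 h (-0.43 ± 0.14, adjusted p = 0.0144), lost in 3 of 26 and 4 of 26 settings. WRKY40 was lower at 3 h by 0.52 ± 0.20 (adjusted p = 0.0397), lost in 8 of 27 settings, with AT1G80850 opposite to it also lower (-0.27 ± 0.11, adjusted p = 0.0476), and WRKY1, at 18.2, 17.7 and 17.7 FPKM in wild type and 15.1, 13.8 and 15.2 FPKM in ecap-2 at 3 h, by 0.27 ± 0.067 (adjusted p = 0.00286). AT2G04890 overlaps WRKY1 on the opposite strand, and its part in the values of WRKY1 was not tested.

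**Figure D5:**
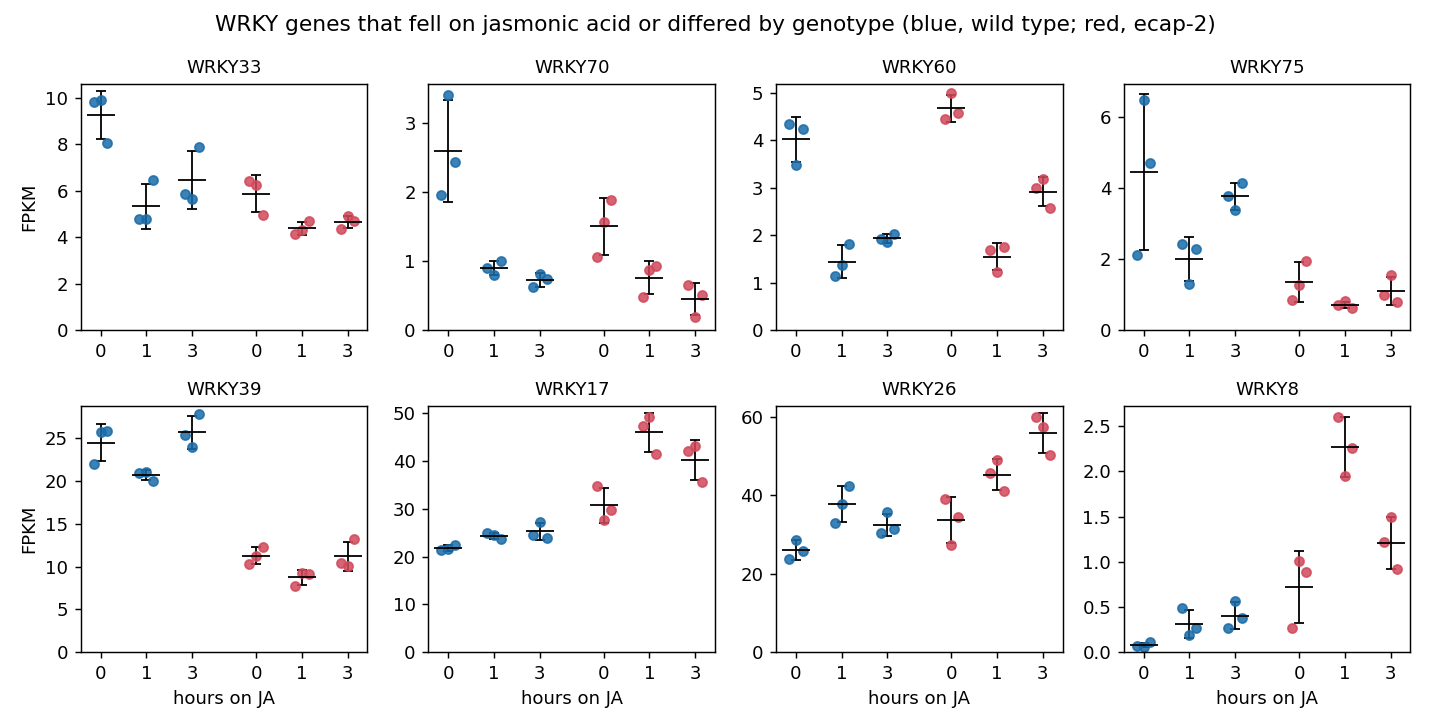
FPKM of 8 WRKY members that fell on JA or differed by genotype, by hours on JA, with 1 point per library (wild type blue on the left, ecap-2 red on the right), a line at the mean and bars of 1 SD (n = 3). WRKY33, WRKY70 and WRKY60 are lower on JA, WRKY39 and WRKY75 are lower in ecap-2, and WRKY17 and WRKY8 are higher in ecap-2.

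Summed markers of shoot and root stood higher in ecap-2, and so did the summed FPKM of all genes. At 3 h that total was 746650 to 765209 in wild type and 853858 to 912834 in ecap-2. The marker sums were not rescaled to it. The summed FPKM of the shoot markers measured, 4 of 5, lay between 22172 and 24759 in wild type at 0 h, 20142.5 and 23102.5 at 1 h and 21560 and 22494 at 3 h, ranges that overlap. In ecap-2 it lay between 28644 and 34184 at 0 h, 27710 and 28467 at 1 h and 30758.5 and 35063 at 3 h, above wild type at each time. Taken singly, 1 of the 4 rose and 3 fell at 3 h in wild type (median -0.37), beside 21.4% and 20.1% of all genes. In ecap-2 1 rose and 1 fell at 3 h, beside 23.1% and 22.2%. Between the genotypes, 2 of the 4 were higher in ecap-2 and 0 lower at 0 h, beside 21.2% and 23.0% of all genes. At 3 h 3 were higher and 0 lower (median 0.63), beside 28.8% and 28.6%, alongside the 8 members higher at that time. The sum of the 7 root markers, carried by PYK10, an abundant root beta-glucosidase, came to 2150 to 2340 FPKM in wild type at 0 h and 3982 to 4175 FPKM at 3 h. In ecap-2 it was 2731 to 2946 and 4542 to 5174 FPKM. Gene by gene, 1 of the 7 rose and 3 fell at 3 h in wild type (median -0.19), beside 21.4% and 20.1% of all genes, with PYK10 going from 2116 ± 87.9 to 3982 ± 99.8 FPKM (SD, n = 3). Between the genotypes 3 of the 7 were higher in ecap-2 and 1 lower at 0 h, beside 21.2% and 23.0% of all genes. At 3 h 5 were higher and 1 lower (median 0.33), beside 28.8% and 28.6%. The 4 seed storage markers summed to 19.1 to 27.3 FPKM in wild type at 0 h, 0.824 to 2.61 FPKM at 1 h and 2.10 to 45.1 FPKM at 3 h. Of the 3 tested, 2 fell at 1 h (median -2.83), beside 16.7% of all genes, alongside the wild type changes at 1 h given above. In ecap-2 they summed to 3.65 to 45.8 FPKM at 0 h and 7.90 to 13.5 FPKM at 1 h, and 0 of the 3 were called at 1 h (limma, 0 at an unadjusted p under 0.05). No shoot or root marker measured was at 0 in all libraries of a group. The part of these markers in the WRKY values was not tested.

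No member's JA response was shown to differ between the genotypes. The test of the difference called 0 of 33 at 1 h, beside 0.168% of all genes higher in ecap-2 and 0.146% lower, and 0 of 33 at 3 h, beside 1.30% and 1.13% (limma). At an unadjusted p under 0.05, 5 members (15.2%) passed at 1 h, beside 7.82% of all genes, and 6 (18.2%) at 3 h, beside 19.1%. The median difference of the members was 0.034 at 1 h and 0.10 at 3 h, against -0.0087 and 0.0052 for all genes. WRKY48 had a difference of 0.65 ± 0.20 (adjusted p = 0.257) at 1 h and passed when 5 was added to FPKM in place of 1 (adjusted p = 0.0163). WRKY69 had 0.46 ± 0.15 (adjusted p = 0.104) at 3 h and passed without ecap-2 0 h replicate 3 (0.0247), and WRKY15 had 0.41 ± 0.17 (adjusted p = 0.203) and passed without wild type 0 h replicate 1 (0.0490).

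Genes that work with WRKY proteins gave mixed counts on JA. These lists are short, and their counts are given as a description alone. Of the 10 VQ proteins tested, which bind WRKY domains, 4 rose and 3 fell at 1 h in wild type (median change -0.12), beside 17.3% and 16.7% of all genes. At 3 h, 3 rose and 1 fell (median 0.19), beside 21.4% and 20.1%. VQ29 was listed at 0 in all 0 h libraries and averaged 2.95 ± 0.495 FPKM (SD, n = 3) at 1 h in wild type. VQ12 went from 3.24 ± 0.513 to 22.8 ± 2.68 FPKM in wild type (2.49 ± 0.34, adjusted p = 5.07e-05) and from 7.91 ± 3.98 to 69.3 ± 2.80 FPKM in ecap-2. JAV1, a VQ repressor of jasmonate defence that is degraded on wounding, rose from 4.83 ± 1.17 to 11.03 ± 0.451 FPKM at 3 h in wild type (1.06 ± 0.14, adjusted p = 1.45e-05) and was higher in ecap-2 at 0 h (0.64 ± 0.14, adjusted p = 0.00203). At 3 h, 6 of the 10 were higher in ecap-2 and 0 lower (median 0.36), beside 28.8% and 28.6% of all genes. SIB2 and, chosen with its values seen, MKS1, both known partners of WRKY33, fell at 1 h in wild type by 0.64 ± 0.13 (adjusted p = 0.00106) and 0.45 ± 0.12 (adjusted p = 0.00604).

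Of 10 MAP kinase cascade genes, 3 rose and 0 fell at 1 h in wild type (median 0.099), namely MPK3, MKK5 and MKK9, beside 17.3% and 16.7% of all genes. MPK3, a kinase of WRKY33, went from 28.0 ± 3.23 to 42.4 ± 3.64 FPKM (0.58 ± 0.078, adjusted p = 1.50e-05). Of 6 camalexin and ethylene genes tied to WRKY33, 1 rose and 1 fell (median -0.15), near those shares. GGP1, an enzyme of the glutathione step in camalexin and glucosinolate synthesis, went from 81.9 ± 5.63 to 491 ± 58.6 FPKM (2.57 ± 0.096, adjusted p = 1.66e-12), and GSTF6 fell (-0.55 ± 0.16, adjusted p = 0.0126). PAD3, the last enzyme of camalexin synthesis and not chosen by the naming rule, had a change of 0.059 ± 0.14 (adjusted p = 0.783).

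Of 10 salicylic acid genes, 2 rose and 3 fell at 1 h in wild type (median -0.062), beside 17.3% and 16.7% of all genes, and 4 rose and 1 fell at 3 h (median 0.11), beside 21.4% and 20.1%. GRX480, a glutaredoxin of salicylic acid and jasmonate crosstalk, went from 0.901 ± 0.525 to 17.4 ± 3.16 FPKM (3.301 ± 0.16, adjusted p = 5.19e-11), and EDS5, the chloroplast exporter of the salicylic acid precursor, from 9.52 ± 0.757 to 30.6 ± 4.34 FPKM (1.58 ± 0.10, adjusted p = 2.44e-09). EDS1 and, named with their values seen, PAD4 and NPR4 fell by 0.65, 0.43 and 0.47 (adjusted p = 5.59e-05, 0.00753 and 0.0319). In ecap-2 at 0 h, 2 of the 10 were higher and 4 lower, beside 21.2% and 23.0% of all genes. Outside the naming rule, ICS1, the synthase regulated by WRKY28, was lower by 0.50 ± 0.10 (adjusted p = 0.000841). PR1 was listed at 0 in all wild type libraries.

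Among 8 genes tested that act with TTG2, 2 rose and 1 fell at 1 h in wild type (median -0.065), beside the 17.3% and 16.7% of all genes. PAP1, the anthocyanin MYB factor, went from 0.819 ± 0.319 to 9.15 ± 3.53 FPKM (2.43 ± 0.36, adjusted p = 0.000100), and GL3 rose while TTG1 fell (0.73 and -0.29). In ecap-2 at 0 h, 2 of the 8 were higher and 0 lower, beside 21.2% and 23.0% of all genes, with TT8 at 4.28 ± 0.693 against 0.460 ± 0.147 FPKM (1.85 ± 0.16, adjusted p = 2.65e-07) and PAP1 higher by 1.35 ± 0.36 (adjusted p = 0.00786). Of 5 senescence genes, 0 rose and 1, NAP, fell at 1 h in wild type (median -0.20), beside 17.3% and 16.7% of all genes. Of 11 genes of touch and early stress, which handling of seedlings can move, 2 rose and 4 fell (median 0.19), beside 17.3% and 16.7% of all genes. TCH4 went from 65.7 ± 16.5 FPKM to 21.9 ± 6.67 FPKM. Changes of the 11 at 1 h in wild type ran from -1.56 to 1.49, and 6 were above 0. The part of handling in the WRKY values was not tested.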

How the data were processed

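RNA of whole seedlings was sequenced in 18 libraries, 3 in each of 6 groups. Each deposited table lists the authors' FPKM per gene for 1 library, per the file headers. TopHat2, Cufflinks and the TAIR10 build were used per the submitters' processing notes, with versions, annotation and the strand used in counting not given in the sources used here. Of 22209 loci, 22122 matched the RefSeq TAIR10.1 table used for names, coordinates and sequences.

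Values were taken as log2(FPKM + 1) of the deposited FPKM. Genes with at least 1 FPKM in at least 3 libraries were tested. Using limma 3.58.1 (trend and robust moderation), R 4.3.3 and statmod 1.5.0, all 18 libraries entered 1 model of 6 group means, with 12 residual degrees of freedom and a median of 4.56 prior ones. P-values were two-sided and Benjamini-Hochberg adjusted over 17835 genes within each of 11 comparisons, at 0.05. Sequences and figures were made with Python 3.11.15 and matplotlib 3.10.9. FPKM give no read depth, so no counting intervals were given. Relative depth was estimated from 2731 low genes. No columns of other samples were used.

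The scripts were tested on simulated data before use. Members and gene lists, 10 lists holding 91 genes (89 listed in the tables, 74 tested), were chosen with earlier results of these data known. Members given with library values were the 4 largest rises and 4 largest falls called in each comparison, plus WRKY18, WRKY33, WRKY40, WRKY44, WRKY50, WRKY51, WRKY57, WRKY60 and WRKY70 whatever their change. Of each list, up to 3 genes of smallest p in wild type at 1 h and 3 h were named. Alternatives were other pseudocounts, filters, scalings and moderation, a replicate block, fits of only the libraries compared, and leaving out each library.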

Additional observations from a re-analysis of the deposited data

Results flagged for a closer look

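WRKY42 (AT4G04450), a WRKY gene outside the 42 members that was chosen after its values were seen, had a JA response at 3 h that differed between the genotypes by 1.36 ± 0.17 on the log2(FPKM + 1) scale (limma adjusted p = 0.00133). Its libraries held 0.276, 0.332 and 0.148 FPKM at 0 h, 0.405, 0.443 and 0.211 FPKM at 1 h and 0.609, 0.880 and 0.460 FPKM at 3 h in wild type and 0.715, 0.671 and 0.543 FPKM at 0 h, 0.978, 0.700 and 0.642 FPKM at 1 h and 4.88, 4.34 and 4.39 FPKM at 3 h in ecap-2. The 3 ecap-2 libraries at 3 h lay above the other 15 and were the libraries through which the gene passed the filter on low values. Its change at 3 h was 0.39 ± 0.12 (adjusted p = 0.0122) in wild type and 1.75 ± 0.12 (adjusted p = 2.36e-09) in ecap-2.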

How the results depend on the processing

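Of 130 changes called among the members, 86 were called in all of the settings run for them. Rescaling to a common total ended 14 and turned the sign of 1, WRKY4 in ecap-2 at 3 h (-0.0069, adjusted p = 0.943). Analysing only the libraries compared ended 12, quantile normalization 11, no filter 6, a pseudocount of 0.1 5, plain empirical Bayes 4 and a pseudocount of 5 3, and leaving out 1 library ended 4 to 12. The causes were not tested. With a mean of at least 5 FPKM required, 21 members were tested, and 10 were called in wild type at 1 h, 8 in wild type at 3 h, 12 in ecap-2 at 3 h, 7 between genotypes at 0 h and 4 at 1 h, fewer because fewer were tested. Without 1 library the members called between genotypes at 0 h ran from 7 to 13, and those called for the difference of the JA response at 3 h from 0 to 1. With a pseudocount of 5, 1 member was called for that difference at 1 h. Over all genes the difference at 1 h was called for 56, and for 32 with a pseudocount of 0.1, 114 with 5, 15 with only the libraries compared and 20 to 56 without 1 library. At 3 h it was called for 432, and for 658 with a pseudocount of 5, 777 after rescaling to a common total (171 higher and 606 lower) and 130 to 1262 without 1 library. With a replicate block, 127 of the 130 member changes kept their call and 789 genes were called for the difference at 3 h. The labels give no pairing by number, and same-numbered libraries deviated together by correlations of -0.157 to 0.322, not all above 0.1, so the samples were treated as sharing a number only. That 13 of 18 libraries correlated best with their own number is a hint from the data, not from the design. FPKM hold no depth, so low members such as WRKY8, WRKY50, WRKY51 and WRKY70 carry a counting error that could not be given.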

Other observations

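Of 30 other genes named WRKY in the reference, 26 were listed and 16 tested. At 1 h in wild type 6 rose and 1 fell, beside 17.3% and 16.7% of all genes, and at 3 h 5 rose and 2 fell, beside 21.4% and 20.1%. In ecap-2 7 rose and 1 fell at 1 h, beside 16.6% and 17.0%, and 8 rose and 0 fell at 3 h, beside 23.1% and 22.2%. In ecap-2 against wild type, 3 were higher and 5 lower at 0 h, beside 21.2% and 23.0%. At 1 h 4 were higher and 3 lower, beside 17.9% and 21.9%, and 4 were higher and 6 lower at 3 h, beside 28.8% and 28.6%. The genes named next were chosen after their values were seen. WRKY31 held 1.28, 1.24 and 1.29 FPKM at 0 h, 5.58, 5.77 and 5.32 FPKM at 1 h and 13.7, 13.4 and 12.1 FPKM at 3 h in wild type and 2.64, 2.33 and 2.90 FPKM at 0 h, 12.0, 10.1 and 7.57 FPKM at 1 h and 32.8, 29.9 and 21.04 FPKM at 3 h in ecap-2. Its level climbed at each step in both genotypes, with changes at 3 h of 2.63 ± 0.14 (adjusted p = 1.90e-10) and 2.97 ± 0.14 (adjusted p = 3.61e-11) against 0 h. At 3 h the ecap-2 libraries lay above those of wild type (1.02 ± 0.14, adjusted p = 1.87e-05). WRKY47 was higher in ecap-2 at 0 h (0.60 ± 0.10, adjusted p = 0.000188) and 3 h (1.096 ± 0.10, adjusted p = 2.56e-07), with 7.72, 8.82 and 7.45 FPKM at 0 h, 6.53, 7.58 and 7.52 FPKM at 1 h and 7.79, 6.08 and 7.38 FPKM at 3 h in wild type and 12.6, 13.2 and 12.0 FPKM at 0 h, 11.9, 11.4 and 9.80 FPKM at 1 h and 18.0, 16.5 and 14.3 FPKM at 3 h in ecap-2. WRKY56 was lower in ecap-2 at 0 h, with 0.321, 0.662 and 0.748 FPKM against 2.64, 3.08 and 2.62 FPKM (-1.27 ± 0.12, adjusted p = 6.91e-07).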
